A study of Argyrosomus regius with 12 samples.

Results

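The spleens of control meagre (Argyrosomus regius, a marine bony fish) were compared at 24 h and at 4 h after an injection of phosphate-buffered saline (PBS) into the body cavity. This control arm holds 6 of the 12 RNA-seq libraries of the series, chosen by their labels as 3 PBS 24 h pools and 3 PBS 4 h pools. The other 6 libraries come from fish given lipopolysaccharide (LPS), a bacterial cell wall component, extracted from Photobacterium damselae subsp. piscicida strain Lg41/01 and dosed at 10 µg per g of fish, again with 3 pools at 24 h and 3 at 4 h. All fish were juveniles of 22 g, acclimated for 2 weeks at 22 °C, and each library was made from the spleens of 4 fish, so that each group stands for 12 fish. Fish that were never injected were not analysed here, so the change after the injection itself was not measured, and time after injection cannot be told apart from anything else that differed between the 2 samplings.

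The spleen of bony fish filters the blood, holds red cells, thrombocytes, lymphocytes and macrophages, and traps antigen. A saline injection delivers handling, a needle and a carrier fluid without the agent under study. In fish, handling and confinement are known to raise cortisol, and immune organs respond to that hormone. This is background and was not measured here.

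The measurements are estimated read counts, summed over the isoforms of each gene that the assembler Trinity had defined. The identifiers are not paired with gene names in the files, so functions, cell types and the tissue label could not be checked against marker genes. In bulk tissue, fewer cells of a type and less RNA per cell cannot be told apart. Levels are CPM, counts scaled to a fixed library total, and the scaling is TMM, which sets libraries to a common level through the bulk of the genes. Total counts ran from 32820406 to 38888446 in PBS 24 h pools and from 29614365 to 35853457 in PBS 4 h pools, and between 92.2% and 94.3% of the 42480 Trinity genes were detected in each PBS pool. A low-count filter left 32542 genes for testing. One LPS library, LPS 4 h replicate 2, stood apart from the other LPS 4 h pools. It belongs to neither PBS group but enters the estimate of spread that the 4 groups share, and it is therefore left out in turn where this matters.

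Few genes passed the test for a change between 24 h and 4 h in control fish, and those that did were all lower at 24 h. By edgeR's quasi-likelihood test with Benjamini-Hochberg adjustment over all tested genes, 5 of 32542 (0.0154%) were called at an adjusted p below 0.05. These 5 fell by 4.57-fold to 12.7-fold on the fitted scale, with adjusted p between 0.0323 and 0.0379. In each of them the 3 PBS 24 h pools lay below the 3 PBS 4 h pools. Their mean levels over the 12 libraries were 3.16 to 6.26 log2 CPM, and 3 of the 5 consist of a single isoform.

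The largest of these falls was in TRINITY_DN32980_c0_g1. It was at 3.17, 2.5 and 1.96 CPM in PBS 24 h replicates 1 to 3, against 27.1, 29.2 and 40.8 CPM in PBS 4 h replicates 1 to 3. All 24 h pools were far below the lowest 4 h pool. On the log2 scale this gene fell by 3.67 ± 0.48 (SE), at an edgeR Benjamini-Hochberg adjusted p of 0.0379.

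TRINITY_DN26184_c0_g1 had the next largest fall. It was at 12.2, 8.28 and 7.19 CPM in PBS 24 h pools, against 51.6, 51.5 and 63.2 CPM in PBS 4 h pools. The 4 h pools were closer together than the 24 h pools on a fold scale, and the groups stood well apart. It fell by 2.59 ± 0.34 (SE) on the log2 scale, again at an edgeR Benjamini-Hochberg adjusted p of 0.0379.

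The other 3 calls had log2 fold changes of -2.41, -2.40 and -2.19. The third was at 2.62, 2.1 and 1.8 CPM in PBS 24 h pools, against 9.91, 10.6 and 14.1 CPM in PBS 4 h pools. The fourth, which sums 3 isoforms, was at 18.4, 20.5 and 16.7 CPM in PBS 24 h pools, against 58.7, 133 and 101 CPM in PBS 4 h pools. Its 24 h pools agree closely while its 4 h pools spread more than 2-fold. The fifth, which sums 8 isoforms, was at 7.07, 4.25 and 5.64 CPM in PBS 24 h pools, against 37.1, 20.6 and 19.9 CPM in PBS 4 h pools. Here PBS 4 h replicate 1 was the highest, and the pools of the 2 times did not overlap.

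**Figure D1:**
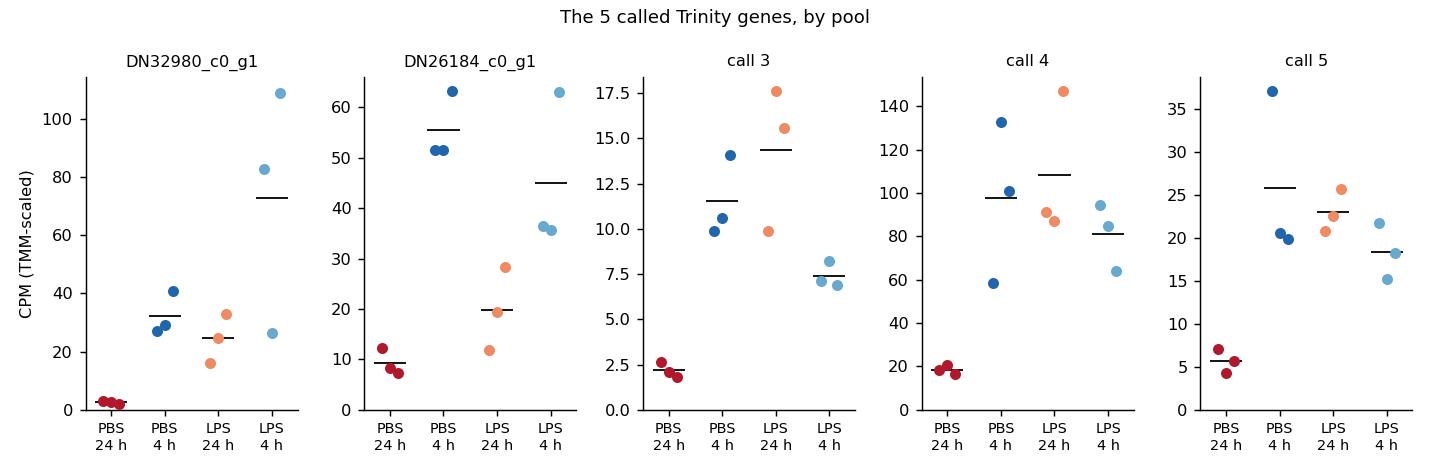
TMM-scaled CPM of the 5 called Trinity genes in each pool (points) with the group mean (bars), for PBS 24 h, PBS 4 h, LPS 24 h and LPS 4 h from left to right, ordered by the size of the fall in PBS. In all 5 genes the PBS 24 h points lie below every PBS 4 h point, as for DN32980_c0_g1 with 1.96 to 3.17 CPM at 24 h against 27.1 to 40.8 CPM at 4 h.

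No gene higher at 24 h passed the test, and the 2 with the lowest unadjusted p at a mean of at least 1 CPM over the PBS pools are given by their values. TRINITY_DN18278_c0_g1 was at 1.66, 2.53 and 2.23 CPM in PBS 24 h pools, against 0.676, 0.269 and 0.428 CPM in PBS 4 h pools. The pools did not overlap, but the counts behind the 4 h values were only 21, 10 and 15. Its log2 difference of 2.23 ± 0.45 (SE) had an edgeR Benjamini-Hochberg adjusted p of 0.166. TRINITY_DN16090_c0_g1 was at 10, 13.6 and 3.21 CPM in PBS 24 h pools, against 1.71, 1.34 and 1.71 CPM in PBS 4 h pools. Here the 4 h pools were alike and the 24 h pools spread over 4-fold, with a log2 difference of 2.49 ± 0.54 (SE) and an edgeR Benjamini-Hochberg adjusted p of 0.226.

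The number of calls differed widely between fits with other libraries, which also changed the filter and the scaling. With the 6 PBS libraries alone, edgeR called 82 of 30886 genes (0.265%), 78 of them lower and 4 higher at 24 h, and 2751 (8.91%) had an unadjusted p below 0.05. Dropping LPS 4 h replicate 2 raised the number to 149 of 33524 (0.444%), of which 147 were lower and 2 higher. All 5 calls were among the 82 and among the 149, and 66 of the 82 were among the 149. Leaving out 1 PBS pool gave 26 calls without PBS 4 h replicate 1 and 0 without any other PBS pool, where between 1484 and 2231 genes had an unadjusted p below 0.05. Without LPS 4 h replicate 1 or 3 there were 6 and 12 calls, and without LPS 24 h replicates 1, 2 and 3 there were 1, 0 and 3. DESeq2 called 338 genes, 316 of them lower and 22 higher at 24 h, and limma-voom called 0, with 1743 genes at an unadjusted p below 0.05.

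Below the level of single calls, the comparison leaned to lower levels at 24 h. An unadjusted p below 0.05 was reached by 2016 genes (6.2%), of which 1426 (4.38% of those tested) were lower and 590 (1.81%) higher in PBS 24 h pools. The share of lower genes was thus 70.7%, with an exact 95% binomial interval from 68.7% to 72.7% that covers counting only, since genes are not independent. The lean grew with the strength of the evidence. At an unadjusted p below 0.01 there were 509 lower and 78 higher genes, at 0.001 there were 115 and 3, and at 1e-04 there were 24 and 0. The lowest 50 p-values all belonged to genes lower at 24 h.

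These differences are relative to the bulk of the genes, which the scaling sets to a common level, so a shift of all genes together could not be seen. On that scale the median log2 fold change over the 32542 genes was 0.03, and 46.8% of genes had a negative value. The quartiles of all genes were -0.22 and 0.26 on the log2 scale. Scaling by library totals alone gave a median of -0.00131 and 78.2% lower among genes at an unadjusted p below 0.05, and upper-quartile scaling gave 0.0584 and 64.8%.

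The lower genes also differed more between the times than the higher ones did. The 1426 lower genes had a median log2 fold change of -1.14 (quartiles -2.04 and -0.75), and 827 of them differed by at least 2-fold. The 590 higher genes had a median of 0.93 (quartiles 0.70 and 1.31), and 263 differed by at least 2-fold. Where all pools of 1 time were at 0 (17 of the lower and 7 of the higher genes), a bound from 3 counts per library was used instead, and the medians came to -1.14 and 0.934. These sets were chosen on the same pools, so the sizes describe the sets and are no independent measure.

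Well expressed genes leaned most. Among genes with a mean log2 CPM of at least 6 over the 12 libraries, 177 of 2417 (7.32%) were lower and 33 (1.37%) higher at an unadjusted p below 0.05. Between 4 and 6 log2 CPM, 349 of 6510 (5.36%) were lower and 87 (1.34%) higher. Below 0 log2 CPM the split was 305 (3.8%) lower and 189 (2.35%) higher of 8026 genes. The share of lower genes among those at an unadjusted p below 0.05 went 61.7%, 65.2%, 70.6%, 80% and 84.3% over the 5 levels, in order of rising expression. The medians of all genes in the top and bottom levels, -0.06 and 0.09, also had opposite signs. Single-isoform genes (71.6% lower of 1730) and genes with at least 5 isoforms (63.4% lower of 93) both leaned to lower levels. The exact interval of the latter, 52.8% to 73.2%, covers counting only, since genes are not independent.

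**Figure D2:**
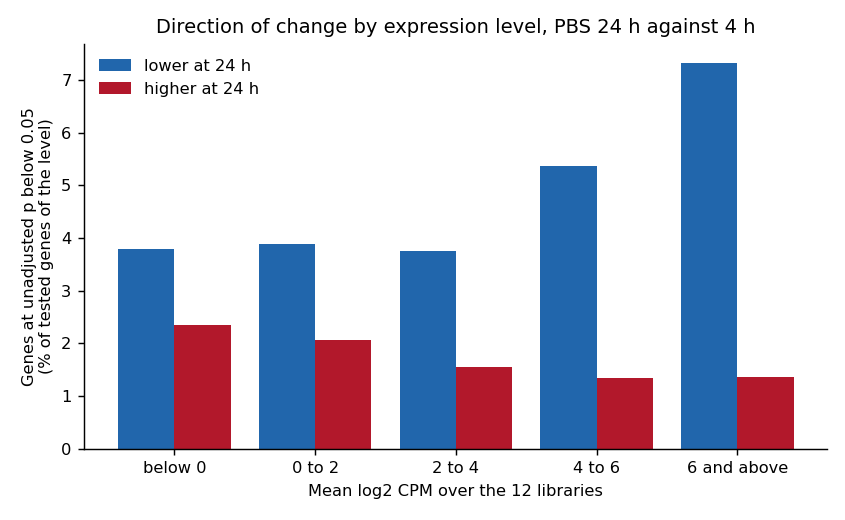
Percent of tested genes at an unadjusted p below 0.05 in PBS 24 h against PBS 4 h pools, split into genes lower (blue) and higher (red) at 24 h, by mean log2 CPM over the 12 libraries. The lower share is 3.8% below 0 log2 CPM and 7.32% at 6 log2 CPM and above, while the higher share is 2.35% and 1.37%.

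The same lean appeared without any fitted spread. In 4636 genes (14.2%) the 3 pools of the 2 times did not overlap in CPM, and 2889 of these (8.88% of genes tested) were lower and 1747 (5.37%) higher at 24 h. At 6 log2 CPM and above the split was 370 lower to 77 higher, and below 0 log2 CPM it was 508 to 517. The lean in pools that do not overlap was thus not seen among the lowest expressed genes. By this measure the share of lower genes over all levels was 62.3%, and it was only 51.3% without PBS 4 h replicate 3.

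Whether the lean held in pools that had not chosen the genes was read from pools left out in pairs. For each of the 9 pairs of a PBS 24 h and a PBS 4 h pool, genes were chosen at an unadjusted p below 0.05 on the other 10 libraries, and the left-out 24 h pool was compared with the left-out 4 h pool. Of genes chosen as lower at 24 h, a median of 81.8% were lower in the left-out 24 h pool (59.7% to 88.7% over the 9 pairs), by a median log2 difference of -0.69 (-1.05 to -0.18). Over all genes the same share had a median of 51% (46.2% to 53.8%). Of genes chosen as higher at 24 h, a median of 45.9% were lower in the left-out 24 h pool, and the range of 29.3% to 72.7% lay on both sides of the value over all genes. Thus genes chosen as lower were mostly lower in the left-out pools in all 9 pairs. Genes chosen as higher were not mostly higher in 4 of the 9. With PBS 24 h replicate 1 and PBS 4 h replicate 2 left out, 71.4% of genes chosen as higher were lower, beside 59.7% of genes chosen as lower. With replicate 2 of both times left out, these shares were 72.7% and 81.8%. The list of lower genes thus did not stand apart from the list of higher genes in every pair. The 9 pairs share pools and genes and are not independent, so no p is given. A pool left out in 1 pair helped to choose the genes in others, and the share over all genes was not matched for level.

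**Figure D3:**
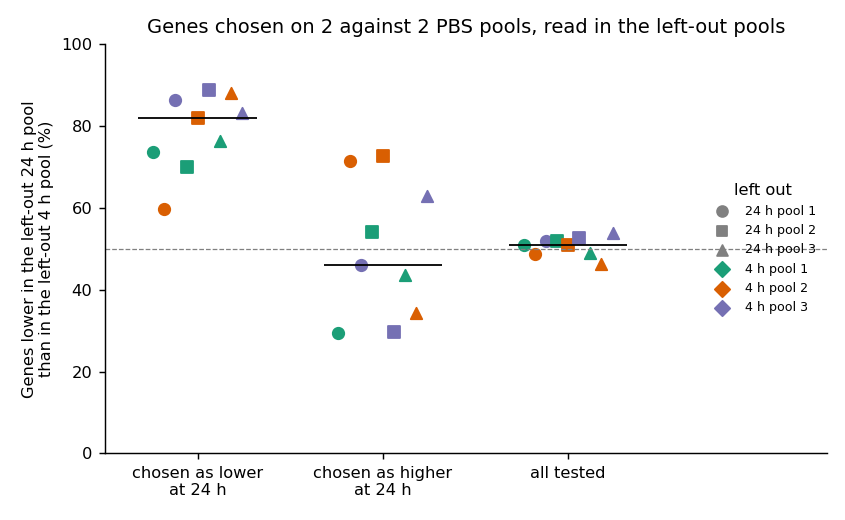
Percent of genes that were lower in a left-out PBS 24 h pool than in a left-out PBS 4 h pool, for genes chosen on the remaining libraries as lower or as higher at 24 h and for all tested genes. Each point is 1 of 9 pairs of left-out pools (shape for the 24 h pool, colour for the 4 h pool), bars are medians at 81.8%, 45.9% and 51%, and the dashed line marks 50%.

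The largest fitted differences belonged in part to a set of genes that 2 of the PBS 4 h pools carried at very high levels. Its lead gene, the most abundant at 4 h among 143 genes at least 16-fold lower with an unadjusted p below 0.05, was at 73.2, 20.6 and 4.71 CPM in PBS 24 h replicates 1 to 3, against 17.96, 8698 and 4040 CPM in PBS 4 h replicates 1 to 3. PBS 4 h replicate 1 thus lay inside the range of the 24 h pools. The log2 difference was -7.02 ± 2.68 (SE), at an edgeR Benjamini-Hochberg adjusted p of 0.687.

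In all, 40 genes followed this lead gene over the 12 libraries with Pearson's r of log2 CPM of at least 0.95. The rule, which also asked for a log2 range of at least 2, was set after the values of these genes were seen. Their summed level was 301.5, 86.1 and 40.3 CPM in PBS 24 h pools, against 82.1, 27280 and 12370 CPM in PBS 4 h pools, or 2.83% and 1.31% of all counts in PBS 4 h replicates 2 and 3. In all 40 genes PBS 4 h replicate 2 was the highest PBS pool and its ratio to replicate 3 had a median of 2.31 (quartiles 1.92 and 2.56), a likeness that the rule on r itself asks for. The LPS pools of both times also differed among themselves, with 1126, 147 and 31.7 CPM in LPS 24 h replicates 1 to 3 and 87.1, 1046 and 22.0 CPM in LPS 4 h replicates 1 to 3. Within each of the 4 groups the pools of the set lay far apart.

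Without names, the cells or tissue that carried this set could not be identified. None of the 40 was called, and all 40 were among the 1426 lower genes (2.81% of them), a direction that the choice of the lead gene fixes. A refit without the set, added after seeing the data, gave 1396 lower and 591 higher genes at an unadjusted p below 0.05, 70.3% of them lower, and 5 calls. All 115 lower genes at an unadjusted p below 0.001 lay outside the set.

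**Figure D4:**
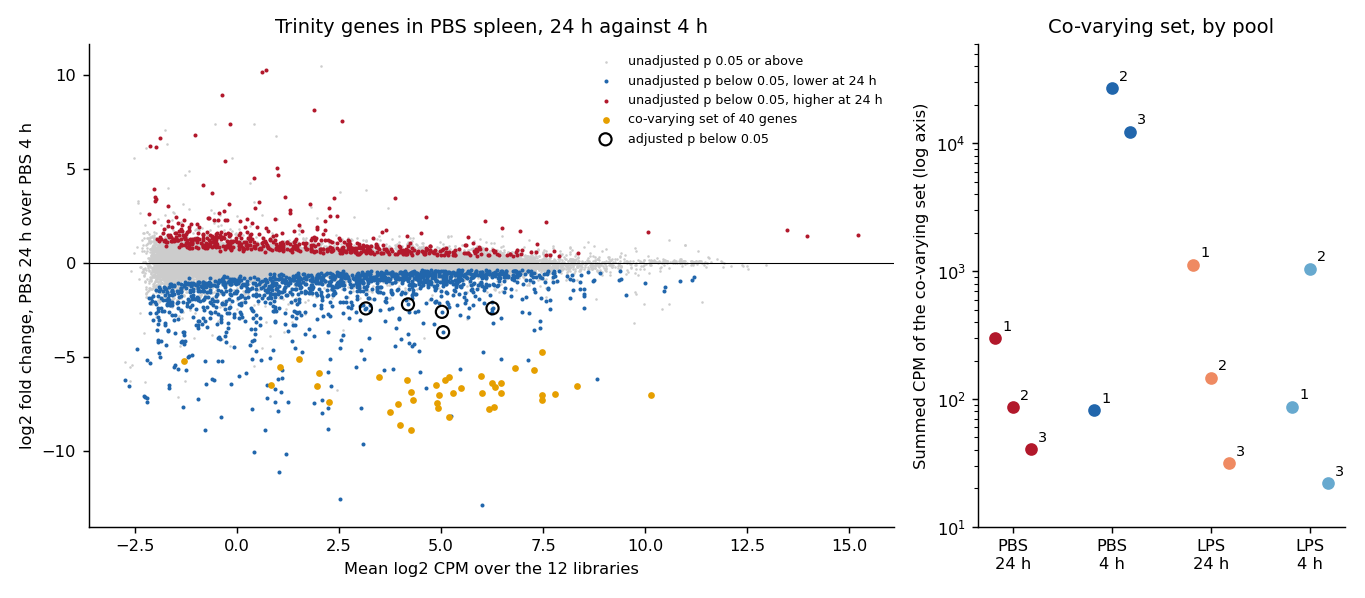
Left, log2 fold change (PBS 24 h over PBS 4 h) against mean log2 CPM for 32542 Trinity genes, with genes lower and higher at an unadjusted p below 0.05 in blue and red, the co-varying set of 40 genes in orange and the 5 called genes circled. Right, summed CPM of the co-varying set in each pool (numbers are replicates), on a log axis, with 27280 and 12370 CPM in PBS 4 h replicates 2 and 3 and at most 301.5 CPM in PBS 24 h pools.

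The most abundant genes varied strongly between pools, and none of them passed the test. The single most abundant Trinity gene took 4.73%, 3.43% and 9.48% of counts in PBS 24 h replicates 1 to 3, against 1.86%, 3.59% and 1.32% in PBS 4 h replicates 1 to 3. The groups overlapped, since PBS 4 h replicate 2 was above PBS 24 h replicate 2 (two-sided exact permutation p = 0.2, 0.4 after Benjamini-Hochberg adjustment over 6 measures per pool, where 3 against 3 cannot go below 0.1). With the next 2 genes, the sum was 8.15%, 6.06% and 16.6% in PBS 24 h pools, against 3.14%, 6.12% and 2.25% in PBS 4 h pools. The third most abundant gene did not overlap, at 1.53%, 1.19% and 3.11% in PBS 24 h pools, against 0.475%, 0.981% and 0.395% in PBS 4 h pools. Its edgeR Benjamini-Hochberg adjusted p was 0.51. In total, 9 genes followed the most abundant one with an r of at least 0.95, none of them called. All 9 were higher at 24 h at an unadjusted p below 0.05, with a median log2 fold change of 1.47. Their shared direction, higher at 24 h, is fixed by the choice of genes that follow it. Without the top 3 genes in the counts, 5 genes were still called, and 66.8% of genes at an unadjusted p below 0.05 were lower.

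Control pools of the same time differed from each other about as much as pools of different times did. The median pair differed by 0.407 among PBS 24 h pools, 0.33 among PBS 4 h pools and 0.376 across times, in the units given next. The median absolute log2 difference per gene between 2 pools was 0.347 to 0.411 among PBS 24 h pools and 0.263 to 0.333 among PBS 4 h pools, and 0.306 to 0.435 for the 9 pairs across times. Pearson's r of log2 CPM across genes was 0.955 to 0.961 within PBS 24 h, 0.955 to 0.959 within PBS 4 h and 0.925 to 0.963 across times. Both the most alike and the least alike of the 15 pairs by r crossed the times, namely the replicates numbered 1 of both times (0.963) and the replicates numbered 3 of both times (0.925). On the first principal component of the 6 pools, with 33.8% of the variance, the PBS 24 h pools lay at 14.4, 37.8 and 85.8 and the PBS 4 h pools at -13.8, -31.4 and -92.8. The times did not overlap on it. LPS pools placed on the same axis lay between -30.7 and -9, on the side of the PBS 4 h pools, both at 24 h and at 4 h. Libraries that did not shape an axis tend to lie near its centre, and the part of this in the placement of the LPS pools was not tested.

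The spread among PBS 24 h pools was larger than among PBS 4 h pools, but 3 pools a group cannot settle this order. The median SD of log2 CPM per gene was 0.335 in PBS 24 h pools and 0.268 in PBS 4 h pools, beside 0.32 in LPS 24 h and 0.448 in LPS 4 h pools. Without PBS 24 h replicate 1 it was 0.253 over the 2 PBS 24 h pools left and 0.272 over 3 PBS 4 h pools. Leaving out any pool of a group lowered the SD of that group, so these 2 values are not alike. With 1 pool of the group left out, the medians were 0.253 to 0.293 in PBS 24 h pools. They were 0.19 to 0.239 in PBS 4 h pools. With all pools, the SD was larger in PBS 24 h pools for 53.6% of genes below 0 log2 CPM and for 70% of genes between 4 and 6 log2 CPM. The median distance of a pool to the mean of the other pools of its group averaged 0.336 ± 0.025 (SD, n = 3) at 24 h, against 0.267 ± 0.030 (SD, n = 3) at 4 h. These distances did not overlap between the times, at a two-sided exact permutation p of 0.1, the smallest that 3 against 3 allows, and 0.4 after Benjamini-Hochberg adjustment over the 6 measures. The 3 distances of a group come from the same 3 pools and depend on each other, so this p is descriptive only. Both groups of controls had similar shares of very variable genes, with an SD above 1 in 592 (2.85%) and 559 (2.69%) of the genes above 1 log2 CPM.

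**Figure D5:**
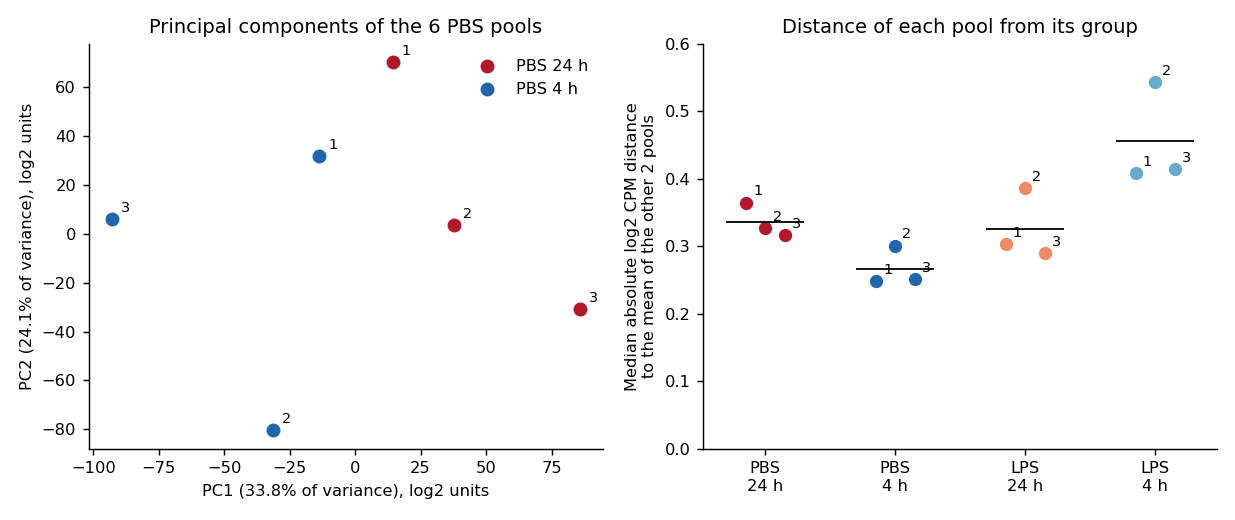
Left, the first 2 principal components of log2 CPM over the 6 PBS pools (33.8% and 24.1% of the variance), with replicate numbers beside the points. Right, the median absolute log2 CPM distance of each pool to the mean of the other pools of its group, with group means as bars. PBS 24 h pools lie at 0.317 to 0.365 and PBS 4 h pools at 0.248 to 0.301, and LPS 4 h replicate 2 is the highest of all pools at 0.544.

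Single pools differed in the direction of their deviations. PBS 24 h replicate 1 lay at least 2-fold below both other PBS 24 h pools in 530 genes above 1 log2 CPM and at least 2-fold above both in 236. PBS 24 h replicate 3 had 206 such genes below and 441 above, and replicate 2 had 179 below and 167 above. Among PBS 4 h pools, replicate 1 had 271 below and 83 above, replicate 2 had 198 below and 337 above, and replicate 3 had 248 below and 214 above. The share of lower genes also moved with the pool left out, from 59.3% lower without PBS 24 h replicate 2 to 77.9% lower without PBS 4 h replicate 1. It stayed above 50% in each of the 12 fits that left out 1 library.

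The LPS pools, which had no part in the PBS contrast beyond the shared spread, scaling and filter, showed what the same genes did over the same hours under LPS. Of the 1426 genes lower in PBS 24 h pools at an unadjusted p below 0.05, 426 (29.9%) were also lower in LPS 24 h than in LPS 4 h pools at that threshold and 130 (9.12%) were higher. Over all tested genes these shares were 15.7% lower and 13.3% higher. At an adjusted p below 0.05 by edgeR with Benjamini-Hochberg adjustment, 211 (14.8%) of the 1426 were called lower and 40 (2.81%) higher in LPS 24 h pools, beside 4.65% and 3.14% of all genes, or 7.79% in either direction. The median log2 fold change, LPS 24 h over LPS 4 h, was -0.24 for the 1426 genes and -0.03 for all. Of the 590 genes higher in PBS 24 h pools, 76 (12.9%) were higher and 52 (8.81%) lower in LPS 24 h pools. The set of lower genes had a median level of 2.81 log2 CPM, beside 2.22 for all genes, and the part of level in these shares was not tested.

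These shares moved without LPS 4 h replicate 2. Of the 2167 genes then lower in PBS 24 h pools at an unadjusted p below 0.05, 937 (43.2%) were lower and 301 (13.9%) higher in LPS 24 h pools, while over all 33524 genes 20.4% were lower and 21.3% higher. Of the 886 genes then higher in PBS 24 h pools, 297 (33.5%) were higher and 96 (10.8%) lower in LPS 24 h pools. In this fit, of the 147 genes called lower in PBS 24 h pools, 113 (76.9%) were also lower in LPS 24 h than in LPS 4 h replicates 1 and 3 at an unadjusted p below 0.05 and 12 (8.16%) were higher. The 147 had a median log2 fold change of -2.08 over time in LPS pools. The called genes of this fit had a median level of 4.83 log2 CPM, beside 2.09 for all genes. Both contrasts also use the same estimate of spread. The part of level and of this shared spread in the shares was not tested. Across all genes, however, the fold changes over time in LPS and in PBS pools were nearly unrelated, with Pearson's r of 0.0516 over 32542 genes in 12 libraries and 0.00128 without LPS 4 h replicate 2. Both contrasts share no library.

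The 5 called genes split in the LPS pools. TRINITY_DN32980_c0_g1 averaged 24.5 ± 8.32 CPM in LPS 24 h pools and 72.8 ± 42.3 CPM in LPS 4 h pools (SD, n = 3 each), where replicate 2 was at 26.4 CPM and replicates 1 and 3 at 82.8 and 109 CPM. TRINITY_DN26184_c0_g1 averaged 19.9 ± 8.23 CPM in LPS 24 h pools and 45.03 ± 15.7 CPM in LPS 4 h pools (SD, n = 3 each). Both were lower in LPS 24 h than in LPS 4 h pools too, with log2 fold changes of -1.57 and -1.18 (edgeR Benjamini-Hochberg adjusted p = 0.0481 and 0.0477).

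The other 3 had log2 fold changes of 0.95, 0.42 and 0.33 in LPS pools. The third call was at 9.88, 17.6 and 15.6 CPM in LPS 24 h pools, against 7.13, 8.2 and 6.92 CPM in LPS 4 h pools, and it was called higher there (edgeR Benjamini-Hochberg adjusted p = 0.0438). For this gene the changes over time differed between LPS and PBS fish, by 3.36 ± 0.37 (SE) on the log2 scale, at an edgeR Benjamini-Hochberg adjusted p of 0.0134. The fall in PBS pools that chose the gene is part of this difference. That test of the difference called 5 of 32542 genes (0.0154%), and the third call was the only one of the 5 PBS calls among them. It rested strongly on 1 library: without LPS 4 h replicate 2, a fit added after seeing the data, the test called 5432 of 33524 genes (16.2%) and 4 of the 5 PBS calls, all but TRINITY_DN26184_c0_g1 (edgeR Benjamini-Hochberg adjusted p = 0.0916). The third call then differed by 3.44 on the log2 scale. In 4 of the 5 PBS calls all LPS 24 h pools lay above all PBS 24 h pools, and in 4 of the 5 they overlapped the range of the PBS 4 h pools. The PBS pools that chose these genes also serve as the base of that comparison, so it is no independent measure. The part of this choice in the pattern was not tested.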

How the data were processed

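The authors deposited 1 matrix of estimated counts of reads, given as whole numbers for 58975 assembled transcripts in 12 libraries. Trimmomatic 0.39, FastQC, Bowtie2, RSEM and DESeq2 are named in the submitters' processing notes with no role or order. Per the labels' protocols, libraries were made with a directional kit, while the sources used here do not give the strand setting, assembly steps or annotation. Counts were summed per Trinity gene (42480 genes, 4467 with several isoforms), which removes the uncertain split among isoforms but not that among near-identical genes.

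The test was the quasi-likelihood F test of edgeR 4.0.16 (R 4.3.3), with robust estimation, TMM scaling and the edgeR expression filter (32542 genes kept). The model held 1 mean per group over all 12 libraries. Two-sided p-values received Benjamini-Hochberg adjustment over all tested genes, and calls needed an adjusted p below 0.05. Standard errors come from the F statistic, and a prior count of 2 entered log2 CPM. DESeq2 1.42.0, limma-voom (limma 3.58.1), other scalings, filters, libraries and features were alternatives. The edgeR test was also run on simulated counts. These were drawn independently for each gene, so they hold no pools that deviate in many genes together.

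The rule for named genes took at most 2 identifiers per direction: the called genes with the largest change and a mean of at least 1 CPM over the PBS pools, filled by the lowest unadjusted p. The comparison, rules and gene sets were chosen with earlier results of these data known. The labels name no molecular identifiers, so intervals and floors cover counting error only. No 2 PBS libraries agree within sampling noise (chi-square per degree of freedom at least 43.9 in all 15 pairs).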

Additional observations from a re-analysis of the deposited data

Results flagged for a closer look

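The third of the 5 called genes changed differently over time in LPS and PBS pools, by the test of the difference itself. Its log2 fold change, 24 h over 4 h, was 0.95 in LPS pools and -2.41 in PBS pools, a difference of 3.36 ± 0.37 (SE) at an edgeR Benjamini-Hochberg adjusted p of 0.0134. Without LPS 4 h replicate 2 the difference was 3.44, at an edgeR Benjamini-Hochberg adjusted p of 0.00041. In that fit the same test called 5432 of 33524 genes (16.2%), so passing it did not set this gene apart. All 3 LPS 24 h pools were above all 3 LPS 4 h pools, and all 3 PBS 24 h pools were below all 3 PBS 4 h pools. The gene was chosen by its fall in these PBS pools, and that fall is part of the difference. The size of the difference is therefore no independent measure.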

How the results depend on the processing

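The lean to lower levels kept its direction in every setting run, but the 5 calls did not hold throughout. Median-ratio scaling, upper-quartile scaling, library totals alone, and fits without the 3 most abundant genes or without the co-varying set gave 5 or 6 calls. DESeq2 gave 338, the 6 PBS libraries alone 82, no filter 8 and CPM above 1 in 3 libraries 1. Limma-voom, transcripts in place of genes and an adjusted p below 0.01 by edgeR each gave 0, with 1743, 2355 and 2016 features at an unadjusted p below 0.05. With 1 library left out, calls ranged from 0 to 149, genes at an unadjusted p below 0.05 from 1484 to 3053, and the share of lower genes from 59.3% to 77.9%. That share, 70.7% as reported, was 68.7% with limma-voom, 67.9% with CPM above 1 in 3 libraries, 68.6% both with the PBS libraries alone and with transcripts, 64.8% with upper-quartile scaling, 78.2% with library totals and 66.8% without the top 3 genes. The median log2 fold change, 0.0278 as reported, was 0.0157 with limma-voom, 0.0584 with upper-quartile scaling, -0.00131 with library totals, 0.0476 without the top 3 genes and between -0.00216 and 0.0378 with 1 library left out. Genes whose pools do not overlap numbered 7073 to 9860 with a PBS pool left out, where fewer pools must separate. Of these, 51.3% to 59.6% were lower at 24 h, beside 62.3% as reported and 55% with upper-quartile scaling. The median SD of log2 CPM in PBS 24 h pools was 0.371 with library totals, 0.308 with CPM above 1 in 3 libraries and 0.389 with transcripts. With 1 PBS pool left out it was 0.253 to 0.34, the lowest without PBS 24 h replicate 1, over the 2 pools left. In PBS 4 h pools it was 0.314 with no filter, 0.233 with CPM above 1 in 3 libraries, 0.326 with transcripts and 0.19 to 0.273 with 1 PBS pool left out. No named gene changed direction in any setting. Both named higher genes passed with DESeq2, TRINITY_DN18278_c0_g1 at a DESeq2 Benjamini-Hochberg adjusted p of 0.000953 and TRINITY_DN16090_c0_g1 at 0.00092. TRINITY_DN18278_c0_g1 also passed without LPS 4 h replicate 2 (edgeR Benjamini-Hochberg adjusted p = 0.0397). TRINITY_DN32980_c0_g1 and TRINITY_DN26184_c0_g1 lost their call with limma-voom, with CPM above 1 in 3 libraries, without any PBS pool other than PBS 4 h replicate 1, and without LPS 24 h replicate 1 or 2; the first lost it also without LPS 4 h replicate 1 or LPS 24 h replicate 3. Their edgeR Benjamini-Hochberg adjusted p with 1 library left out ranged from 0.000936 to 0.366 and from 0.00791 to 0.366. Why these values moved was not tested.

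A fit that added a replicate block called 0 genes by edgeR, with 1585 at an unadjusted p below 0.05 and 75.9% of these lower. Deviations of same-numbered PBS pools correlated at 0.0742, -0.00479 and -0.408, and those of differently numbered pools at -0.309 to 0.323. Deviations within a group sum to 0, so these values depend on each other. They cannot show whether the numbers pair the pools. With the block, both named lower genes had an edgeR Benjamini-Hochberg adjusted p of 0.107.

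With 3 pools a group and the spread seen here, a gene that misses the threshold is not shown to be unchanged. The SD between pools was largest among the genes with the fewest counts, at a median of 0.478 in PBS 24 h and 0.448 in PBS 4 h pools below 0 log2 CPM.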

Other observations

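Over all 42480 Trinity genes, complete absence at 1 time was rare in the control pools. A single gene had 0 counts in all PBS 24 h pools and at least 10 in each PBS 4 h pool, with 117, 104 and 170 counts in PBS 4 h replicates 1 to 3 (edgeR Benjamini-Hochberg adjusted p = 0.236). It had 11, 227 and 154 counts in LPS 24 h replicates 1 to 3 and 145, 80 and 6 counts in LPS 4 h replicates 1 to 3. The reverse was seen for 2 genes, with 49, 76 and 50 counts and with 133, 196 and 89 counts in PBS 24 h replicates 1 to 3 (edgeR Benjamini-Hochberg adjusted p = 0.697 and 0.529). The first of these had 1, 0 and 101 counts in LPS 24 h and 0, 70 and 0 counts in LPS 4 h replicates 1 to 3. The other had 0, 1 and 0 counts in LPS 24 h and 227, 0 and 0 counts in LPS 4 h replicates 1 to 3. Both were thus at 0 or 1 count in some LPS pools and well above in others.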
